A study of Beta vulgaris subsp. vulgaris with 30 samples.

Results

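BTC1 (Bevul.2G112000), the pseudo-response regulator that governs bolting time in beet, and its clock paralogue PRR7 (Bevul.7G065600) were followed through water or ethanol pretreatment and freezing in sugar beet shoots. They are 2 of the 21587 genes in the table of read counts, were chosen by their identifiers, and both passed the filter on low counts. BTC1 was higher in frozen than in unfrozen pretreated shoots, with a log2 change of 0.41 ± 0.12 (SE) averaged over the pretreatments. In that comparison 21.1% of all genes passed. The change of BTC1 did not pass after ethanol alone, and no difference of frozen shoots from those taken before pretreatment was shown. No difference between groups passed the test for PRR7, whose interval for the averaged change, -0.12 to 0.70, also holds the value of BTC1. PRR7 varied more within the groups than between them, and in each of the 4 pretreated groups its lowest libraries were those numbered 3 and 4.

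The plants were seedlings of Beta vulgaris subsp. vulgaris, grown in soil at 22 °C with 16 h of light and 8 h of dark, and each library holds RNA of shoots. The 30 libraries fall into 5 groups of 6, all without any transgene named in the labels. The first group was taken before pretreatment, the second after 3 days with the pots standing in water, and the third after 3 days in ethanol. The remaining groups had the same water or ethanol days followed by freezing temperature, with 2 h in the group names. The series description gives seedlings aged 7 days, 80 mM ethanol and a night at -2.1 to -3.5 °C, while the protocol text on each sample speaks of Arabidopsis at 14 days of age, of ethanol at 20 mM over 6 days, and of -4.0 °C. The former is followed here because the counted genes are beet genes. Cultivar, sampling hour and number of seedlings per library are not stated in those texts, nor is it said that replicates came from separate plantings, so the p-values measure only how far these samples spread, which may be technical. In bulk shoots, fewer cells of a type and less RNA per cell cannot be told apart.

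Pseudo-response regulators carry a receiver-like domain at one end and a CCT domain, which contacts DNA, at the other. In Arabidopsis they are transcribed in turn through the day, repress the morning clock genes CCA1 and LHY, and restrain the CBF genes of cold acclimation. In beet, BTC1 acts through a pair of FLOWERING LOCUS T homologues: it lowers the floral repressor FT1 and raises the floral promoter FT2, and differences between BTC1 alleles set annual against biennial growth. PRR7 carries the name of its counterpart in the Arabidopsis clock.

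In the beet assembly EL10.2, BTC1 lies on chromosome 2 from 34011577 to 34020955 and PRR7 on chromosome 7 from 13895882 to 13913794, both on the minus strand. The RefSeq genes named BTC1 and PRR7 lie wholly inside these spans, and the table's BTC1 model reaches 521 bp further at the 3′ end, the PRR7 model 6 bp. The library method, Lasy-Seq, primes on the poly(A) tail, so most reads should come from near the 3′ end, which both models include. No gene of the count table overlaps either gene. RefSeq places a long non-coding RNA gene, LOC130590372, at 34012474 to 34012957, inside the BTC1 span, and the labels do not say if strand was used in counting, so its reads and those of BTC1 cannot be told apart. The nearest counted genes on the 3′ side start after gaps of 3046 bp for BTC1 and 3329 bp for PRR7. The annotation used names none of the other clock, flowering or cold genes in an 18-entry list of the pathway (CCA1 and LHY, the evening complex, phytochromes, the FLOWERING LOCUS T family, CBF genes and others), so their response was not analysed here. Markers of shoot or root were likewise not named, and the tissue label was not checked.

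Total counts ran from 3379082 to 17868082 per library, and the library with the fewest was ethanol replicate 4. BTC1 had between 162 and 772 reads in a library and PRR7 between 43 and 556, so the counting error of a single library was 3.60 to 7.86% for BTC1 and 4.24 to 15.2% for PRR7. These errors cover counting only. Levels are given as CPM, which are read counts brought to a common library size with TMM factors, with mean ± SD over 6 libraries.

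Before pretreatment BTC1 ranged from 34.5 to 53.1 CPM with a median of 40.8. After water it ranged from 23.8 to 36.4 CPM with a median of 29.8, and after ethanol from 30.2 to 47.5 CPM with a median of 38.5. Frozen shoots held 31.7 to 65.3 CPM after water (median 43.3) and 34.9 to 59.1 CPM after ethanol (median 41.9). The water group was the lowest of the 5, and the ranges of every pair of groups overlapped.

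Relative to its level, PRR7 was spread more widely than BTC1 inside every group other than ethanol with freezing. It ranged from 13.4 to 37.6 CPM before pretreatment (median 15.6), from 10.9 to 31.1 CPM after water (median 19.6) and from 12.6 to 33.7 CPM after ethanol (median 26.8). Frozen shoots held 13.0 to 33.9 CPM after water (median 29.5) and 20.2 to 32.3 CPM after ethanol (median 30.4). The 5 ranges largely cover each other.

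**Figure D1:**
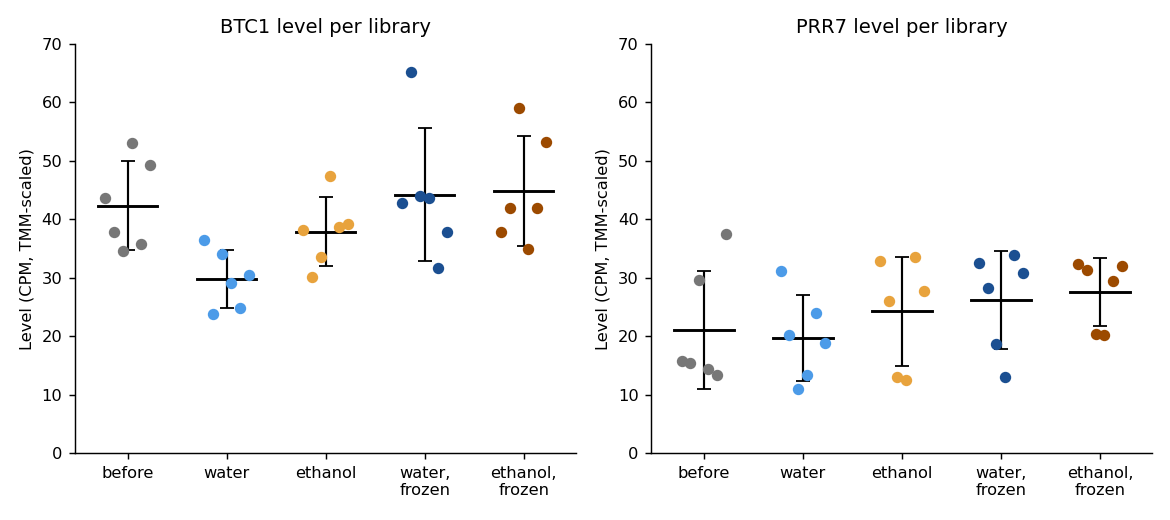
Level of BTC1 (left) and PRR7 (right) in each of the 30 libraries, in TMM-scaled CPM, by group; points are libraries in order of replicate number, thick lines are means and error bars are SD over 6 libraries. BTC1 is lowest after water, at 23.8 to 36.4 CPM, and PRR7 spans a 2.60- to 2.85-fold range in every group other than ethanol with freezing.

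Whether freezing changed BTC1 was asked after each pretreatment. After water, BTC1 rose from 29.8 ± 4.98 to 44.2 ± 11.3 CPM, and 5 of the 6 frozen libraries lay above the highest unfrozen one. The log2 change was 0.57 ± 0.17 (SE), with a 95% interval of 0.22 to 0.92 and, by edgeR's quasi-likelihood test, an adjusted p of 0.0232. Of all 14128 genes tested, 11.1% passed in this comparison. A higher signed log2 change than that of BTC1 was found in 22.6%, with larger falls not counted. After ethanol, BTC1 stood at 37.9 ± 5.88 and 44.8 ± 9.38 CPM, with 2 of the 6 frozen libraries above the unfrozen range. That log2 change was 0.24 ± 0.17 (interval -0.10 to 0.59, adjusted p = 0.447), where 12.3% of genes passed.

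Averaged over both pretreatments, which uses 12 frozen and 12 unfrozen libraries, BTC1 rose by a log2 change of 0.41 ± 0.12 (interval 0.16 to 0.65, adjusted p = 0.0123 by edgeR). In this comparison 21.1% of genes passed, and the median log2 change of all genes was 0.10. BTC1 was therefore among a large share of genes that moved with freezing. A higher signed log2 change than that of BTC1 was found in 29.1% of genes, which leaves out larger falls. Many of those genes were measured less precisely, since the median SE of all genes was 0.31. The averaged call held in all 24 fits that left out a library, with adjusted p values of 0.00585 to 0.0368.

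The rise after water alone was less firm. Frozen water replicate 2, at 65.3 CPM, stood apart from the other 5 frozen water libraries, at 31.7 to 43.9 CPM. Without it the log2 change after water was 0.43 and the adjusted p 0.124, and the call was also lost without water replicates 2 or 5 (adjusted p 0.0667 and 0.0638) and in a fit of just those 2 groups (0.0668), and the alternatives together spanned 0.0108 to 0.124. The responses after ethanol and after water differed by -0.32 ± 0.24 on the log2 scale (interval -0.81 to 0.17, adjusted p = 0.9999 by edgeR), so no difference between the pretreatments was shown. No gene passed that test of the difference by edgeR (0% of genes; 406 at an unadjusted p under 0.05) or by DESeq2 (0 genes). Because no sampling hour is stated, an effect of the hour and an effect of freezing cannot be told apart for either gene.

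BTC1 before pretreatment supplied a reference for the size of this rise. From 42.4 ± 7.59 CPM at the start, BTC1 stood at 29.8 ± 4.98 CPM after water, and 5 of the 6 water libraries lay below the lowest starting one. The log2 change was -0.51 ± 0.17 with an interval of -0.86 to -0.16, but the adjusted p was 0.105, where 3.09% of genes passed. After ethanol the log2 change from the start was -0.16 ± 0.17 (interval -0.51 to 0.18, adjusted p = 0.755), where 3.77% of genes passed. Frozen shoots differed from the starting ones by 0.06 ± 0.17 after water (interval -0.29 to 0.41, adjusted p = 0.891) and by 0.08 ± 0.17 after ethanol (interval -0.26 to 0.43, adjusted p = 0.855), although 14.6% and 15.1% of genes passed in these comparisons. The comparisons with the start share its 6 libraries, and those of freezing and of pretreatment after water share the water libraries, which were the lowest group. The start was taken before the 3 days of pretreatment. In comparisons with it, pretreatment, growth over those days and the hour of sampling cannot be told apart for either gene.

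In order of mean level, BTC1 was highest in frozen shoots after ethanol, followed by frozen shoots after water, the start, ethanol and water. No neighbours in that order passed the test. The adjusted p was 0.9998 between the frozen groups, 0.891 between frozen water and the start, 0.755 between the start and ethanol, and 0.9999 between ethanol and water, all by edgeR. Across the order, frozen shoots after ethanol exceeded unfrozen shoots after water by a log2 difference of 0.59 ± 0.17 (adjusted p = 0.0164, where 12.5% of genes passed), a call lost without frozen ethanol replicate 3 (adjusted p = 0.0632, range 0.0104 to 0.0632). A joint test of any difference among the 5 groups gave BTC1 an adjusted p of 0.0492, close to the threshold of 0.05, where 20.1% of genes passed. It was 0.0690 with relative log expression scaling, 0.0583 without the low-count filter and 0.0687 with the replicate number as a block, a range of 0.0492 to 0.0690.

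Ethanol against water asked what the pretreatment did to the bolting regulator by itself. In unfrozen shoots BTC1 was at 37.9 ± 5.88 CPM after ethanol and 29.8 ± 4.98 CPM after water, with 4 of the 6 ethanol libraries above all the water libraries. The log2 difference was 0.34 ± 0.17 (interval -0.0032 to 0.69), and edgeR's p was 0.0520 unadjusted and 0.9999 adjusted, in a comparison where 0.00708% of genes, a single gene, passed. In frozen shoots the difference was 0.020 ± 0.17 (interval -0.32 to 0.37, adjusted p = 0.9998), where 0.106% of genes passed. Averaged over unfrozen and frozen shoots it was 0.18 ± 0.12 (interval -0.062 to 0.43, adjusted p = 0.9999), where 0.177% passed.

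PRR7, the clock paralogue, did not pass in any of the 13 comparisons. After water it stood at 19.8 ± 7.32 CPM unfrozen and 26.2 ± 8.42 CPM frozen, a log2 difference of 0.41 ± 0.29 with an interval of -0.17 to 0.99 (edgeR, adjusted p = 0.473). After ethanol it stood at 24.3 ± 9.34 and 27.6 ± 5.74 CPM, a log2 difference of 0.17 ± 0.28 (interval -0.41 to 0.75, adjusted p = 0.817). Averaged over the pretreatments the difference was 0.29 ± 0.20, with an interval of -0.12 to 0.70 that also holds the value of BTC1, and an adjusted p of 0.364. At the start PRR7 stood at 21.1 ± 10.1 CPM. Its log2 differences from the start were -0.087 ± 0.29 after water, 0.22 ± 0.29 after ethanol, 0.32 ± 0.29 after water and freezing and 0.39 ± 0.29 after ethanol and freezing, with adjusted p values of 0.950, 0.821, 0.571 and 0.455.

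Ethanol against water gave PRR7 log2 differences of 0.31 ± 0.29 in unfrozen shoots (interval -0.27 to 0.89) and 0.071 ± 0.28 in frozen shoots (interval -0.51 to 0.65), with adjusted p values of 0.9999 and 0.9998. The order of its means was frozen after ethanol, frozen after water, ethanol, start and water. The neighbours in that order had adjusted p values of 0.9998, 0.906 (11.3% of genes passed between frozen water and ethanol), 0.821 and 0.950, and the joint test of any difference gave 0.680. The intervals of PRR7 are wider than those of BTC1, and changes of the size seen in BTC1 lie within them.

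**Figure D2:**
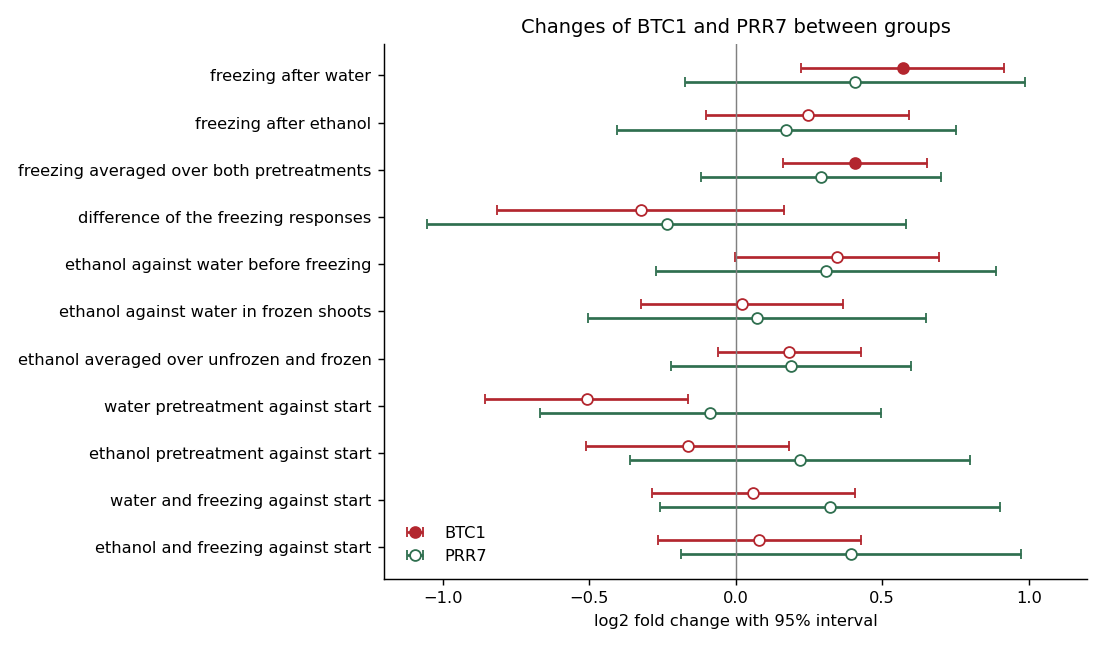
Log2 fold changes of BTC1 (red) and PRR7 (green) in 11 comparisons, with 95% intervals from the fit of all 30 libraries; filled points passed an adjusted p of 0.05 over all genes. BTC1 passed for freezing after water (0.57) and for freezing averaged over the pretreatments (0.41), and every PRR7 interval crosses 0.

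The width of the PRR7 intervals follows its spread within groups. The coefficient of variation of PRR7 was 47.97% at the start, 37.0% with water, 38.4% with ethanol, 32.1% in frozen water shoots and 20.8% in frozen ethanol shoots. For BTC1 it was 15.5 to 25.6%. The biological coefficient of variation fitted by edgeR, which leaves out counting error, was 0.347 for PRR7 and 0.217 for BTC1. Of the 3096 genes with a mean within 2-fold of PRR7's, 21.7% were more dispersed than it. Of the 2294 genes with a mean within 2-fold of BTC1's, 77.0% were more dispersed. BTC1 was thus steadier between libraries than most genes of its abundance, and PRR7 more variable than most of its own.

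The spread of PRR7 had a pattern by replicate number, seen after the values were examined. Replicates 3 and 4 were its lowest pair of libraries after water (10.9 and 13.3 CPM), after ethanol (13.1 and 12.6 CPM), after water and freezing (18.8 and 13.0 CPM) and after ethanol and freezing (20.4 and 20.2 CPM). Replicate 1, in contrast, stood at 31.1 to 32.8 CPM in the same 4 groups. Averaged over these groups, PRR7 stood at 32.2 ± 0.75 CPM in replicate 1, 26.4 ± 4.69 in replicate 2, 15.8 ± 4.50 in replicate 3, 14.8 ± 3.62 in replicate 4, 30.2 ± 4.62 in replicate 5 and 27.4 ± 5.88 in replicate 6 (SD, n = 4 groups). Before pretreatment the numbers fell otherwise, with replicates 3 and 6 high, at 29.7 and 37.6 CPM, and the other 4 at 13.4 to 15.8 CPM. Library totals in the pretreated groups were 6318167 to 9007180 for replicate 3 and 3379082 to 14089300 for replicate 4. They were 7823880 to 17868082 for the other numbers, so low PRR7 and low totals coincided in part. What part depth had in the pattern was not tested.

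With replicate number as a term in a fit of all 30 libraries, neither PRR7 nor BTC1 passed by edgeR, each with an adjusted p of 0.9999. No gene of the table passed (0%, with 445 at an unadjusted p under 0.05). Unadjusted, edgeR's p was 0.0047 for PRR7, with 0.21% of genes lower, and 0.732 for BTC1, with 65.4% lower. These libraries include those in which the pattern was seen, so this p is no independent test of it. In the 4 pretreated groups alone PRR7 had an adjusted p of 0.0607, which was 0.00775 without the low-count filter and 0.264 to 0.9999 when any of the 4 groups was left out. That restricted fit was run because the pattern had been seen in those groups, so its p restates the observation and is no independent test of it. No gene passed in the restricted fit (0% of 13741), where 1 gene, Bevul.7G044900 on chromosome 7, had a lower p than PRR7. Averaged over the 4 groups, Bevul.7G044900 stood at 0.027 CPM in replicate 3 and at 5.81 to 8.87 CPM in the other numbers. With group means removed, its r with PRR7 was 0.52 over these 24 libraries. The labels do not say what a replicate number stands for, and what the pattern reflects was not tested.

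**Figure D3:**
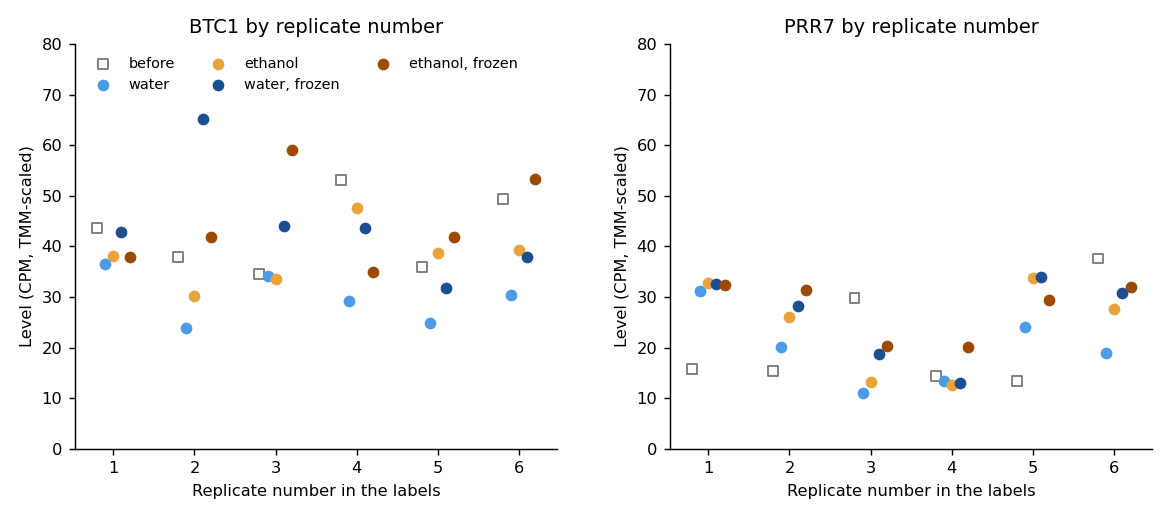
Level of BTC1 (left) and PRR7 (right) in TMM-scaled CPM by the replicate number in the labels; filled circles are the 4 pretreated groups and open squares the libraries taken before pretreatment. PRR7 is at 10.9 to 20.4 CPM in all pretreated libraries numbered 3 or 4, and BTC1 shows no common low number.

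With the replicate number as a block in the fit of all groups, PRR7 still passed in no comparison. Its averaged freezing difference was then 0.31 on the log2 scale (adjusted p = 0.211 by edgeR), and frozen shoots after ethanol differed from unfrozen shoots after water by 0.51 (adjusted p = 0.190). BTC1 kept its averaged call with the block, at 0.41 (adjusted p = 0.0174).

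Whether the paralogues moved alike was asked from the ratio of their reads inside each library, which needs no scaling between libraries. The gene models differ in length and read capture, so the ratio compares libraries and not the levels of the genes. PRR7 had a median of 39.0 reads per 100 BTC1 reads before pretreatment (27.2 to 86.1), 72.6 after water (32 to 96.8) and 77.9 after ethanol (26.5 to 86.9). Frozen shoots had medians of 57.3 after water (29.8 to 106.9) and 64.9 after ethanol (34.5 to 85.4). The groups overlapped throughout.

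The mean log2 ratio was -1.11 ± 0.66 at the start, -0.66 ± 0.62 with water, -0.73 ± 0.73 with ethanol, -0.80 ± 0.70 in frozen water shoots and -0.70 ± 0.46 in frozen ethanol shoots. Freezing went with differences of -0.14 after water and 0.031 after ethanol, with 2-sided exact permutation p values of 0.729 and 0.933. Water and ethanol differed from the start by 0.45 and 0.38 (exact permutation p = 0.255 and 0.385). Over the 6 comparisons all adjusted p values were 0.933, and the smallest unadjusted p that 6 against 6 libraries allow is 0.0022. No difference between the responses of the paralogues was shown, with a spread between libraries several times the differences seen for freezing.

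**Figure D4:**
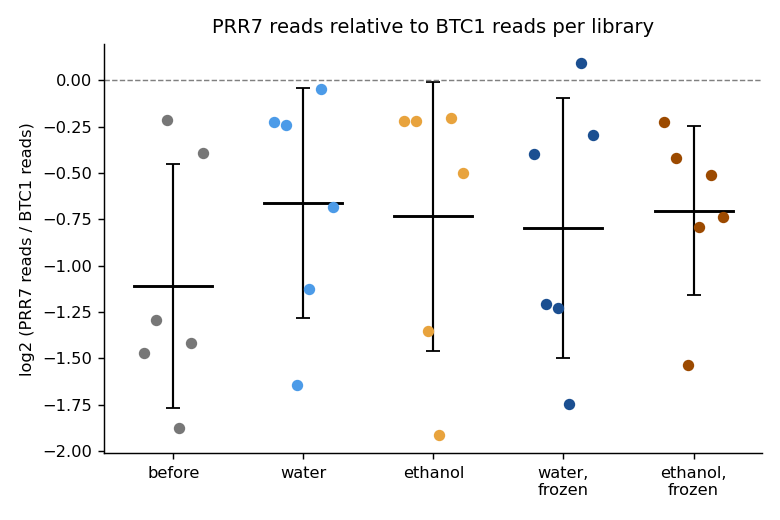
Log2 ratio of PRR7 reads to BTC1 reads in each library by group; points are libraries, thick lines are means and error bars are SD over 6 libraries, and the dashed line marks equal read numbers. The means lie between -1.11 before pretreatment and -0.66 after water, with SDs of 0.46 to 0.73.

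Inside the groups no shared variation of the paralogues was shown. With group means removed, log2 CPM of BTC1 and PRR7 had a Pearson r of -0.10 (permutation p = 0.607) and a Spearman rho of -0.10 (permutation p = 0.615) over 30 libraries, 2-sided with 100000 permutations inside groups. Without the pair of libraries farthest from the median on BTC1, r was -0.096. The total count of a library, tested in the same way, had an r of -0.22 with BTC1 (permutation p = 0.243; rho -0.11, p = 0.575; -0.14 without the farthest pair). With PRR7 it had an r of 0.43 (permutation p = 0.0335; rho 0.38, p = 0.0536; 0.31 without the farthest pair, ethanol replicates 4 and 6). Adjusted over the 3 relations, the p values of r were 0.607, 0.364 and 0.10, so none passed. The part of depth in the spread of PRR7 was not tested further.

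**Figure D5:**
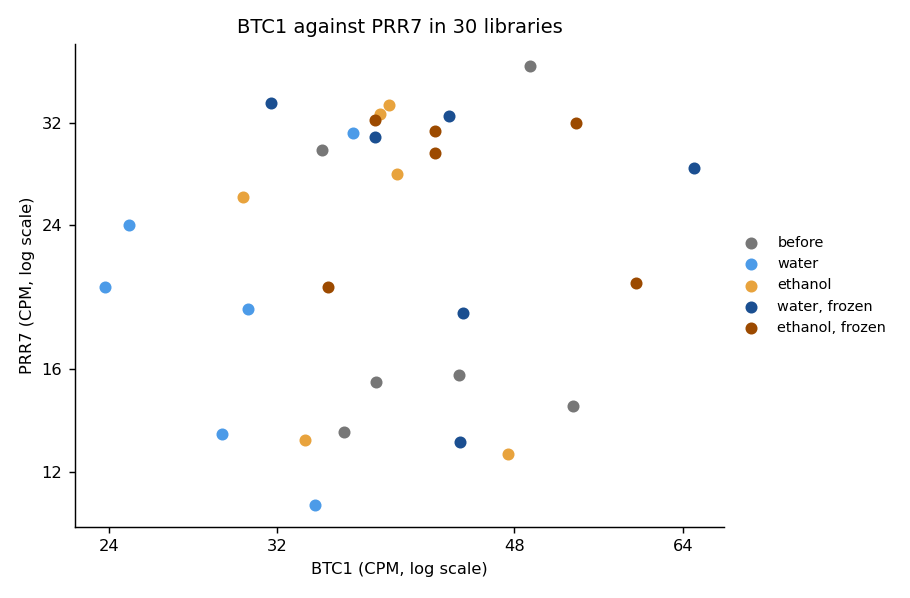
PRR7 against BTC1 in the 30 libraries, both in TMM-scaled CPM on log axes, coloured by group. High and low PRR7 libraries occur across the range of BTC1, with r of -0.10 once group means are removed.

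The genes whose profile was most like each member were found among the 5405 other genes that averaged 10 CPM or more, as a description over 30 libraries that share groups and depth. BTC1 was most like Bevul.4G047400 (chromosome 4, 6879757 to 6880706; r = 0.69), Bevul.4G165500 (chromosome 4, 54433438 to 54433800; r = 0.67) and Bevul.9G096300 (chromosome 9, 33497540 to 33505876; r = 0.66). Bevul.4G047400 stood at 69.6 ± 18.4 CPM at the start, 36.2 ± 10.4 after water, 40.9 ± 9.98 after ethanol, 115.9 ± 25.5 after water and freezing and 119.3 ± 6.81 after ethanol and freezing. Like BTC1 it had its lowest group after water and its highest after ethanol and freezing, which follows in part from choosing it by r. Its mean frozen levels stood above its start, whereas no difference of frozen shoots from the start was shown for BTC1. With group means removed, the r of Bevul.4G047400 with BTC1 was 0.62.

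PRR7 was most like Bevul.6G082500 (chromosome 6, 13780299 to 13790713; r = 0.73), Bevul.9G149800 (chromosome 9, 45936130 to 45957993; r = 0.68) and Bevul.2G146100 (chromosome 2, 42956926 to 42961062; r = 0.65). For Bevul.6G082500 the likeness lay inside the groups, with an r of 0.82 once group means were removed, the highest of the 5405 genes. Its group means ranged from 13.96 to 15.5 CPM. Its lowest libraries were replicates 3 and 4 in 3 of the 4 pretreated groups, and replicates 3 and 2 after water. Bevul.6G082500 was picked for its likeness to PRR7 in these same libraries, so sharing its low replicates follows largely from that choice and is no separate evidence of the pattern. BTC1 and PRR7 themselves had an r of 0.10, and 16 genes reached 0.6 with BTC1 against 8 with PRR7. An r of -0.6 or below was found for 16 genes with BTC1 and for 1 with PRR7.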

How the data were processed

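Read counts per gene were deposited by the authors as whole numbers, and the length column of that table is the authors' own value. Bcl2fastq, Trimmomatic, HISAT2, featureCounts and DESeq2 are named, per the submitters' processing notes, without versions; those notes name TAIR10, while per the file headers the chromosomes are those of EL10.2. A further table deposited by the authors holds a signal, each count over 1 factor per library (relative spread at most 1.18e-09), and was used for that check alone. No pair of libraries held identical counts.

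Symbols came from RefSeq genes of EL10.2 matched by position. The members and lists were chosen with earlier results of these data known. Named genes were the members, pathway genes found by symbol (0 besides the members), and the 3 genes with the highest Pearson r per member. The 1 gene ahead of PRR7 in the replicate-number fit of the pretreated groups was named too. A family search by protein sequence was planned and not run, since no protein sequences were used here.

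The main fits used edgeR 4.0.16 under R 4.3.3. The filter filterByExpr left 14128 genes with 99.9% of reads; TMM factors and a quasi-likelihood model of 5 group means were used, with 2-sided tests, Benjamini-Hochberg adjustment over all genes and a threshold of 0.05. Alternatives were dropping the low-count filter, scaling by relative log expression, a replicate block, the compared groups only, DESeq2 1.42.0, and leaving out each library. Only the comparison of freezing after water was tried on simulated data. The changes simulated were larger than those of BTC1, so the trial does not cover changes of the size reported here. Permutation tests used Python 3.11.15 with numpy 2.4.6. Log2 CPM used a prior count of 2.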

Additional observations from a re-analysis of the deposited data

Results flagged for a closer look

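BTC1 in frozen water replicate 2 stood at 65.3 CPM, far above the other 5 libraries of its group relative to the range of the group. Of 15 groups of 6 libraries examined in this way (5 for each gene and 5 for the ratio of their reads), this was the only one with such a library. Chance gives about 1 in 20 where values are spread normally, and the rule was applied to CPM here. On the log2 scale the library was at 6.03, the next at 5.46 and the lowest at 5.00. It was less far apart relative to the range on that scale. PRR7 in the same library was at 28.2 CPM, inside the range of its group.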

How the results depend on the processing

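The 37 results were recomputed under other settings, giving 630 values in all, of which 592 kept direction and side of the threshold. Most of the 37 results had no call to begin with and kept their side by staying without one. BTC1 after water kept a log2 change of 0.43 to 0.65 over the left-out libraries, and was 0.53, without a call, with the compared groups only or with the replicate block in the 4 pretreated groups. With the replicate block in all groups it was 0.57 with its call (adjusted p = 0.0313). The joint F of BTC1, 3.90, was 3.57 with relative log expression scaling, 3.66 without the low-count filter and 3.68 with the replicate block, each without a call. Ethanol with freezing against water gave 0.50 to 0.66 for BTC1 over the left-out libraries. For PRR7 it gave 0.51 with the planned replicate block in all groups (adjusted p = 0.190) and 0.44 with the compared groups only (0.248), both without a call. A block in the pretreated groups alone, added because of the pattern of PRR7 itself, gave 0.49 with a call (0.0479), which follows from that choice and is given no weight. The replicate-number F of PRR7 in the pretreated groups was 11.2 (adjusted p = 0.0607), and dropping the low-count filter made it 6.31 (0.00775); leaving out each group in turn gave adjusted p values of 0.264 to 0.9999. The cause was not tested in any of these cases.

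Changes of sign were confined to differences without a call when 1 library was left out. The ranges were -0.074 to 0.16 for BTC1 and -0.065 to 0.16 for PRR7 in ethanol against water in frozen shoots, -0.084 to 0.14 and -0.014 to 0.16 for BTC1 in frozen water and frozen ethanol against the start, -0.26 to 0.16 for PRR7 in water against the start, and -0.050 to 0.24 for PRR7 in frozen water against ethanol. For the ratio they were -0.33 to 0.055 and -0.20 to 0.20 for freezing after water and ethanol, and -0.27 to 0.16 and -0.097 to 0.27 for ethanol against water in unfrozen and frozen shoots. Over the 5406 genes that averaged 10 CPM or more, the replicate numbers did not meet the limit set for pairing. At most 1 of 6 same-numbered pairs between any groups had an r over 0.1, from -0.18 to 0.13. Between ethanol and frozen water, however, 5 of the 6 ethanol libraries were most like the frozen water library of their own number, with r of 0.017 to 0.073, against 0 to 1 in the other pairs of groups, which is a hint from the data and not from the design.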
